A study of Homo sapiens with 12 samples.

Results

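TNFRSF21, XK and UBOX5 are 3 human genes whose transcripts were lower in both groups of HEK293 cells that had received a small interfering RNA (siRNA) against SAFB. They are described here with 4 genes of death receptor signalling, TNFRSF10A, TNFRSF10B, TNFRSF1A and FADD, which makes 7 genes of the 58780 gene IDs counted in each library. TNFRSF21, XK and UBOX5 were chosen by their measured losses in SAFB1 KD and triple KD against control. Values of the 7 genes in triple KD and SAFB1 KD are therefore a description, given without a test, also where those groups are set against each other or against both single knockdowns added up. A test is given for SLTM KD against control. It compares no library with SAFB siRNA, but it uses the same control libraries and a spread estimated over all 12 libraries. The genes were chosen with the counts of all 12 libraries at hand, so for TNFRSF21, XK and UBOX5 this test is not independent of the choice.

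Poly(A)-tailed RNA of HEK293 cells, an embryonic kidney line in its Flp-In T-REx form, was sequenced in 12 libraries of 4 groups, 3 per group. The groups were triple KD, with siRNAs against SAFB, SAFB2 and SLTM together; SAFB1 KD, with the SAFB siRNA and negative control siRNA up to the same total amount; SLTM KD, with the SLTM siRNA and the same top-up; and control, with control siRNA only. Each target was addressed by 1 siRNA sequence, and SAFB2 KD alone was not analysed here. SAFB, SAFB2 and SLTM encode related nuclear RNA-binding proteins, and the protein of SAFB is called SAFB1.

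TNFRSF21, also called death receptor 6, belongs to the tumour necrosis factor (TNF) receptors that carry a death domain inside the cell. In this family a bound ligand gathers adaptor proteins such as FADD at the death domain, and these bring in and activate caspase-8, or they lead through ubiquitin ligases to the transcription factor NF-κB. TNFRSF10A and TNFRSF10B are the receptors of the ligand TRAIL, and TNFRSF1A is the main receptor of TNF. XK is a membrane protein that carries the Kx blood group antigen, is bound to the Kell protein on red cells and to VPS13A in many cells, and is lost in McLeod syndrome. UBOX5 is a ubiquitin ligase of the U-box class.

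An siRNA acts through its guide strand, and bases 2 to 8 of the guide, the seed, can pair with transcripts other than the target. The guides are shown because the seed of the SAFB siRNA has a full match in the 3′ untranslated region (3′ UTR) of TNFRSF21 and of XK. Each was derived as the reverse complement of the 19 paired bases of the sense strand listed by the study, and capitals mark the seed.
SAFB siRNA guide: uUUCUGAUcaucuuggucc
SAFB2 siRNA guide: uUAUCCAUcacgaccgucc
SLTM siRNA guide: uCACGAAUuauucuaaugc
The paired 19 bases of each siRNA matched the principal transcript of its own target and no other gene's, in the coding part: SAFB at chr19:5654145-5654163 (plus strand), SAFB2 at chr19:5598848-5598866 (minus strand) and SLTM at chr15:58890402-58890420 (minus strand), all in GRCh38.

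The seed of the SAFB siRNA pairs with the 7-base word ATCAGAA, and the word followed by A, ATCAGAAA, is its 8-base form. TNFRSF21 (chromosome 6, 47231532 to 47309905, minus strand, 6 exons) held the 8-base form once, at chr6:47231580-47231587. The site lay 1178 bases past the stop codon in a 3′ UTR of 1233 bases. XK (chromosome X, 37685791 to 37732130, plus strand, 3 exons) also held it once, at chrX:37731479-37731486, 3017 bases past the stop codon in a 3′ UTR of 3668 bases. Capitals mark the word in the sites, written on the transcript's strand.
TNFRSF21 site: gaaggaccgatATCAGAAA
XK site: ctcacaaggttATCAGAAA
Pairing from guide base 2 ran for 7 bases at either site and ended with the seed. UBOX5 (chromosome 20, 3107573 to 3160196, minus strand, 5 exons) held neither form anywhere in its principal transcript of 4300 bases. TNFRSF10B, TNFRSF1A and FADD held neither form in theirs, and TNFRSF10A held the 7-base form once, in its coding part. None of TNFRSF21, XK, UBOX5, TNFRSF10B, TNFRSF1A and FADD held the SAFB2 word ATGGATA. The SLTM word ATTCGTG stood in the coding part of TNFRSF21 and of TNFRSF1A and in none of the 3′ UTRs of these 6 genes. A match is a description of the letters. Whether the siRNA acted at these sites was not tested.

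The libraries held 56856228 to 75533510 gene counts, and mitochondrial transcripts took 4.11 to 4.51% of them in triple KD, 3.89 to 4.25% in SLTM KD, and 3.31 to 3.68% over SAFB1 KD and control. The part of this share in the results below was not tested. Gene levels are in CPM, that is counts divided by the library total after TMM adjustment and set to the same scale, as mean ± SD. The spread among replicates beyond counting error (biological coefficient of variation) was 2.14%, and the series calls the replicates biological. The HEK293 markers VIM, KRT8 and KRT18 were high (1094, 266 and 135 CPM in control), and PAX2 and NEFM were low (4.66 and 1.71 CPM). The 5 markers summed to 1450 to 1480 CPM in triple KD, 1480 to 1510 in SAFB1 KD, 1560 to 1600 in SLTM KD, with 1480 to 1520 in control. The 11 markers of other cell types summed to 13.7 to 15.6 CPM over all libraries. COL1A1 and COL3A1 made up nearly all of that, and the other 9, including PTPRC of leukocytes and KRT5 of squamous epithelium, stayed at or below 0.185 CPM. VIM made up most of the first sum, and in triple KD against control, by edgeR's quasi-likelihood test on the log2 scale, KRT8 (-0.10, adjusted p = 0.000105), PAX2 (-0.35, adjusted p = 0.000442) and NEFM (-0.48, adjusted p = 0.00259) fell, whereas COL3A1, a fibroblast marker, rose (0.50, adjusted p = 0.000887). The part of these shifts in the results below was not tested. In bulk RNA, fewer cells of a type and less RNA per cell cannot be told apart. SAFB itself stood at 38.2 CPM in triple KD, 45.3 in SAFB1 KD, 236 in SLTM KD, with 232 in control.

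TNFRSF21 was far lower wherever SAFB siRNA had been given, and to nearly the same level with 1 siRNA as with 3. It measured 25.65, 24.34 and 24.84 CPM in the triple KD libraries and 25.79, 26.71 and 25.75 CPM in the SAFB1 KD libraries. It measured 71.03, 71.10 and 68.53 CPM in SLTM KD and 73.97, 69.60 and 71.28 CPM in control. The 6 libraries with SAFB siRNA therefore lay between 24.34 and 26.71 CPM, and the 6 without it between 68.53 and 73.97 CPM.
The group means were 24.9 ± 0.664 CPM in triple KD, 26.1 ± 0.541 in SAFB1 KD, 70.2 ± 1.47 in SLTM KD, with 71.6 ± 2.20 in control (SD, n = 3 each). Triple KD thus held 34.8% of the control level and SAFB1 KD 36.4%. The log2 fold change against control was -1.52 (SE 0.0331) in triple KD and -1.46 (SE 0.0329) in SAFB1 KD. Both comparisons use the same control libraries, as does every other comparison against control below.

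XK was also low in all libraries with SAFB siRNA, and it was lower still when SAFB2 and SLTM siRNAs were added. It measured 9.088, 9.801 and 8.932 CPM in triple KD and 16.45, 15.80 and 15.38 CPM in SAFB1 KD. It measured 32.03, 33.13 and 30.27 CPM in SLTM KD and 33.23, 33.84 and 32.97 CPM in control. The libraries of triple KD, of SAFB1 KD, and of the groups without SAFB siRNA formed 3 ranges without overlap, and SLTM KD and control overlapped. XK averaged 9.27 ± 0.463 CPM in triple KD, 15.9 ± 0.539 in SAFB1 KD, 31.8 ± 1.44 in SLTM KD, with 33.4 ± 0.447 in control (SD, n = 3 each). These are 27.8% of control in triple KD and 47.6% in SAFB1 KD, or log2 fold changes of -1.84 (SE 0.0461) and -1.07 (SE 0.0422).

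UBOX5 was lower than XK in every library and had the same order of groups with SAFB siRNA, lowest in triple KD. It measured 2.662, 3.003 and 3.062 CPM in triple KD and 3.816, 4.127 and 4.203 CPM in SAFB1 KD. It measured 8.358, 9.572 and 8.407 CPM in SLTM KD and 8.236, 8.783 and 8.819 CPM in control. These rest on 152 to 208 counts of UBOX5 per triple KD library, 237 to 278 per SAFB1 KD library and 489 to 666 per library of the other groups. UBOX5 averaged 2.91 ± 0.216 CPM in triple KD, 4.05 ± 0.205 in SAFB1 KD, 8.78 ± 0.688 in SLTM KD, with 8.61 ± 0.326 in control (SD, n = 3 each). Triple KD held 33.8% of control and SAFB1 KD 47.0%, or log2 fold changes of -1.56 (SE 0.0783) and -1.09 (SE 0.0736).

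**Figure D1:**
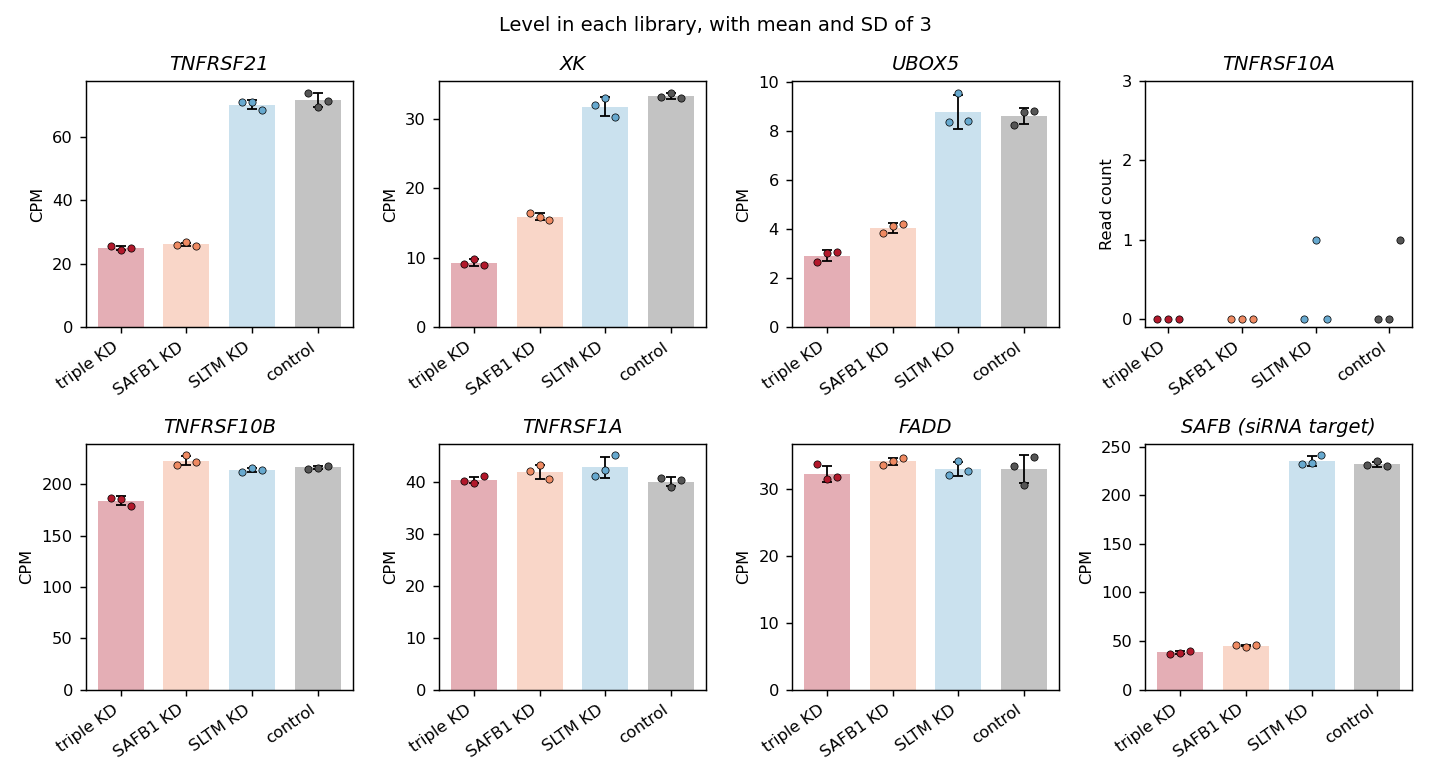
Levels of the 7 genes and of SAFB (y axis, CPM from 0, its own scale per gene; read count for TNFRSF10A) in triple KD, SAFB1 KD, SLTM KD and control (x axis); points are libraries, bars are means and whiskers are SD of 3. TNFRSF21 sits near 25 CPM in both groups with SAFB siRNA, XK and UBOX5 are lowest in triple KD, and TNFRSF1A and FADD keep nearly one level.

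TNFRSF10B, TNFRSF1A and FADD were not low in SAFB1 KD. TNFRSF10B, a receptor of TRAIL (chromosome 8, 23020133 to 23069031, minus strand), measured 187.4, 185.7 and 179 CPM in triple KD and 219, 227.8 and 222.1 CPM in SAFB1 KD. It measured 211.6, 215.5 and 213.5 CPM in SLTM KD and 215.4, 216.4 and 217.9 CPM in control. The 3 triple KD libraries lay below all 9 others, and the SAFB1 KD libraries lay just above control. Against control, the log2 fold change of TNFRSF10B was -0.23 (SE 0.0215) in triple KD and 0.04 (SE 0.0213) in SAFB1 KD.

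TNFRSF1A, the main TNF receptor (chromosome 12, 6328757 to 6342114, minus strand), measured 40.28, 39.94 and 41.16 CPM in triple KD and 42.06, 43.35 and 40.70 CPM in SAFB1 KD. It measured 41.29, 42.26 and 45.20 CPM in SLTM KD and 40.81, 39.17 and 40.47 CPM in control. The adaptor gene FADD (chromosome 11, 70203296 to 70207390, plus strand) measured 33.64, 31.35 and 31.70 CPM in triple KD and 33.46, 34.12 and 34.63 CPM in SAFB1 KD. It measured 32.13, 34.06 and 32.68 CPM in SLTM KD and 33.34, 30.59 and 34.72 CPM in control. Triple KD and SAFB1 KD overlapped control for both genes. Their log2 fold changes ran from -0.03 (FADD in triple KD) to 0.07 (TNFRSF1A in SAFB1 KD).

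TNFRSF10A, the other TRAIL receptor (chromosome 8, 23190452 to 23225102, minus strand), was not measurable at this depth. It had 2 counts in all, 1 in SLTM KD replicate 2 and 1 in control replicate 3. A count of 0 allows a TNFRSF10A level of up to 0.0403 to 0.0532 CPM, from 3 counts in a library, for counting error only. It did not reach the 10 counts asked for over the 12 libraries, so 6 of the 7 genes were among the 26688 tested.

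Per kilobase of exon, the control levels of the 6 genes were, in falling order, 43.2 CPM per kb for TNFRSF10B, 19.9 for TNFRSF21, 19.3 for FADD, 9.55 for TNFRSF1A, 6.45 for XK and 1.82 for UBOX5. In triple KD TNFRSF21 stood at 6.94 CPM per kb, under FADD at 18.9 and TNFRSF1A at 9.62, with TNFRSF10B at 36.7, XK at 1.79 and UBOX5 at 0.614. TNFRSF21 (SD 0.612) and FADD (SD 1.23) did not differ beyond their spread in control, and the other neighbours in the order lay further apart than their SD. The order rests on annotated exon lengths.

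Calls were made at an adjusted p under 0.05 over all genes tested. In triple KD against control, 40.3% of genes were called and 20.9% were called lower. TNFRSF21, XK, UBOX5 and TNFRSF10B were among those called lower, 4 of 6, a count that the choice of genes fixed in part. In SAFB1 KD against control, 9.66% were called and 4.62% were called lower, with TNFRSF21, XK and UBOX5 among them, 3 of 6. Ranked among 13989 genes that averaged 1 CPM or more, the log2 fold change in SAFB1 KD was the 2nd lowest for TNFRSF21, 3rd for UBOX5 and 5th for XK. In triple KD, XK was 13th, UBOX5 34th and TNFRSF21 39th from the lowest.

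Over all genes, 999 were called lower in both triple KD and SAFB1 KD, and 759 of these were not called in SLTM KD. Of all genes tested, 9.26% were called in SLTM KD, a smaller share than among the 999. Over 2-fold lower in both were 26 of the 999, whatever their call in SLTM KD, and 8 of the 26 had at least 1 CPM in control. These were SAFB, TNFRSF21, XK, UBOX5, ZNF571-AS1, CFAP45, ZNF814 and ENSG00000277879. CFAP45 had a log2 fold change of -0.785 in SLTM KD as well. TNFRSF21 and XK had the highest control levels of the 8 after SAFB, and the other 5, UBOX5 included, ran from 1.15 to 8.61 CPM in control. XK stood nearest to the 2-fold limit from within, at -1.07 in SAFB1 KD, and MIR600HG, a non-coding host gene of a microRNA, stood just outside it at -0.999, with -1.14 in triple KD.

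SLTM KD against control asks whether lowering another family member, with another siRNA, moved the same genes. TNFRSF21, XK and UBOX5 were chosen for losses shared by the groups with SAFB siRNA, and this choice may have favoured little change here. None of the 6 genes was called in SLTM KD by edgeR or by DESeq2, against 9.26% of all genes, and 1 of the 6 had an unadjusted p under 0.05. The log2 fold change was -0.03 for TNFRSF21 (95% interval -0.09 to 0.03, adjusted p = 0.698), -0.07 for XK (-0.14 to 0.01, adjusted p = 0.344) and 0.03 for UBOX5 (-0.10 to 0.15, adjusted p = 0.896). SLTM itself stood at 20.5 CPM in SLTM KD against 116 CPM in control. TNFRSF10B had a log2 fold change of -0.02 (adjusted p = 0.692) and FADD 0.0034 (adjusted p = 0.980).

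The gene with the low unadjusted p was TNFRSF1A, whose 3 SLTM KD libraries lay above all control libraries, at 42.9 ± 2.03 CPM against 40.2 ± 0.864 CPM (SD, n = 3 each). Its log2 fold change of 0.10 had an adjusted p of 0.0665. It was called with upper-quartile scaling (0.0200), with another filter on low counts (0.0449), with the replicate number as a block (0.0258) and without SLTM KD replicate 1 (0.0332), and adjusted p ran from 0.0200 to 0.484 over 18 alternatives.

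Triple KD against SAFB1 KD compares groups that both had SAFB siRNA, and asks whether SAFB2 and SLTM siRNAs moved the genes further. As the genes were chosen on these libraries, the differences are a description. XK was lower in triple KD by a log2 fold change of -0.77 (SE 0.0515), and UBOX5 by -0.47 (SE 0.0909), and for either gene all 3 triple KD libraries lay under all 3 of SAFB1 KD. TNFRSF21 had -0.07 (95% interval -0.14 to 0.01), and its highest triple KD library, 25.65 CPM, lay just under its lowest SAFB1 KD library, 25.75 CPM. TNFRSF10B had -0.28 (SE 0.0216), with its libraries in the same order. TNFRSF1A (-0.06, 95% interval -0.12 to 0.01) and FADD (-0.08, 95% interval -0.16 to -0.005) overlapped. Of all genes tested, 34.9% were called in this comparison. Over 18 alternatives the difference ran from -0.81 to -0.74 for XK, from -0.51 to -0.41 for UBOX5 and from -0.08 to -0.03 for TNFRSF21.

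SAFB was itself lower with 3 siRNAs, in triple KD against SAFB1 KD, by -0.24 (SE 0.0299, adjusted p = 4.72e-10). SAFB2 stood at 29.1 CPM in triple KD, 209 in SAFB1 KD, 140 in SLTM KD, with 126 in control, so SAFB2 was above control in SAFB1 KD. SLTM stood at 25.0 CPM in triple KD and 139 in SAFB1 KD. The parts of SAFB2 and SLTM in the lower levels of XK and UBOX5 in triple KD cannot be told apart with these groups.

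Triple KD was also set against the sum of the log2 changes of SAFB1 KD and SLTM KD, again as a description for the 7 genes. TNFRSF21 lay at the sum within its error, at -0.04 (95% interval -0.13 to 0.05). XK differed from it by -0.71 (SE 0.0645) and UBOX5 by -0.50 (SE 0.112). TNFRSF10B differed by -0.26 (SE 0.0304), TNFRSF1A by -0.15 (SE 0.0486) and FADD by -0.08 (SE 0.0548). Of all genes tested, 21.4% were called for a departure from the sum. The sum holds no SAFB2 KD term.

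**Figure D2:**
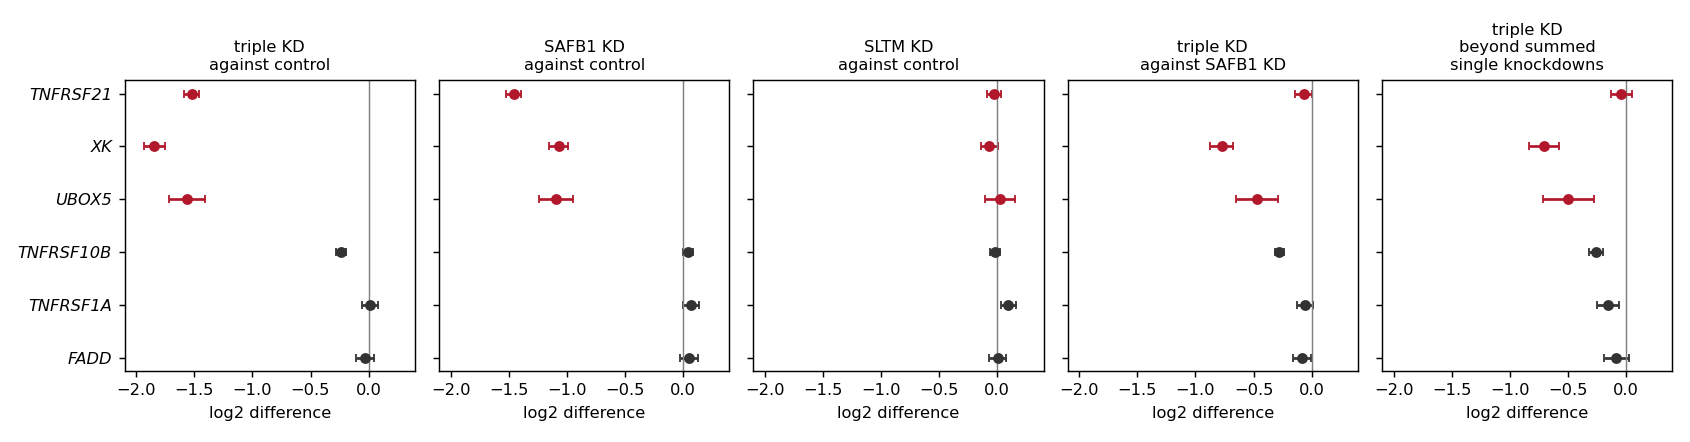
Log2 differences (x axis) of the 6 genes tested (y axis) in the 5 comparisons; points are estimates of the fit and whiskers 95% intervals, with TNFRSF21, XK and UBOX5 in red. The red genes lie near 0 in SLTM KD, and in triple KD against SAFB1 KD XK lies at -0.77, UBOX5 at -0.47 and TNFRSF21 at -0.07.

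The genes most like each of TNFRSF21, XK and UBOX5 were found by the Pearson correlation of log2 CPM over the 12 libraries, as a description. The libraries fall into 4 groups and the points share their depth, so r mostly compares group means. TNFRSF21 was most like SAFB (r = 0.9974), the siRNA target itself, followed by AK3 (0.9899), GOLIM4 (0.9887), MIR600HG (0.9884) and SELENOO (0.9878). AK3, a mitochondrial adenylate kinase, averaged 31.0 CPM in triple KD, 33.5 in SAFB1 KD, 47.9 in SLTM KD, with 49.3 in control. GOLIM4, a Golgi membrane protein, averaged 85.7 CPM in triple KD, 84.5 in SAFB1 KD, 120 in SLTM KD, with 115 in control.

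XK was most like MYO6, the myosin that moves towards the minus end of actin filaments (r = 0.9995), then SLC38A1 (0.9958), CFL2 (0.9949), ERLIN2 (0.9948) and ME1 (0.9945). MYO6 averaged 57.2 CPM in triple KD, 86.2 in SAFB1 KD, 141 in SLTM KD, with 147 in control. UBOX5 was most like ERLIN2 (0.9933), STK39 (0.9924), ME1 (0.9923), ZNF451 (0.9922) and YTHDC2 (0.9912). ERLIN2, of the endoplasmic reticulum membrane, and ME1, the cytosolic malic enzyme, thus stood in the lists of both XK and UBOX5.

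**Figure D3:**
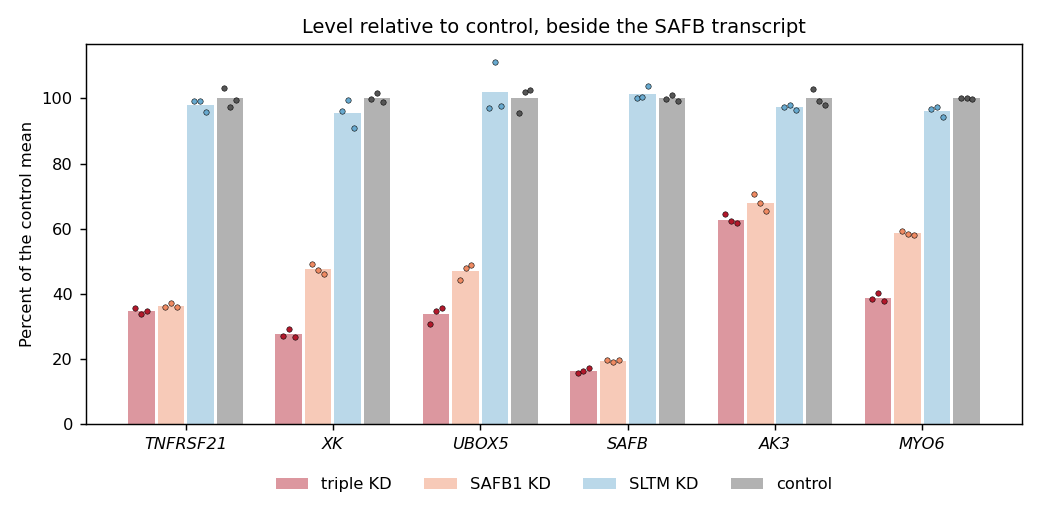
Levels in percent of the control mean (y axis, from 0) of TNFRSF21, XK and UBOX5, of SAFB, and of AK3 and MYO6, which were like TNFRSF21 and XK; bars are means of 3 libraries and points are libraries, for triple KD, SAFB1 KD, SLTM KD and control. TNFRSF21 holds 34.8% in triple KD and 36.4% in SAFB1 KD, and XK 27.8% and 47.6%.

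The word of the SAFB siRNA was also counted in the 3′ UTRs of these genes. AK3 held the 8-base form once and GOLIM4 held it 2 times in the 3′ UTR, SELENOO and SLC38A1 held no 7-base form there, and MIR600HG has no coding part. MYO6 held 2 of the 7-base form and none of the 8-base form in a 3′ UTR of 4525 bases. CFL2 and ME1 held the 8-base form, ERLIN2, STK39 and YTHDC2 only the 7-base form, and ZNF451 neither in its 3′ UTR, though 2 of the 7-base form elsewhere in its transcript. SAFB2, which rose in SAFB1 KD (0.73, adjusted p = 4.17e-34), held the 8-base form in its coding part.

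Of 15766 genes tested with an annotated 3′ UTR, 1107 (7.02%) held ATCAGAAA in it, as did TNFRSF21 and XK. Among those with the word, 45% were called lower in triple KD, 20.4% in SAFB1 KD and 13.6% in SLTM KD, and among those without it 28.4%, 5.36% and 8.47%. Their median log2 fold change in SAFB1 KD was -0.0461 with the word and 0.0122 without it. Most genes with the word were therefore not called lower in SAFB1 KD. The 7-base form stood in 2709 of the 15766 genes (17.2%), of which 14.4% were called lower in SAFB1 KD, against 4.76% of genes without it.

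Genes with the word had longer 3′ UTRs, with a median of 3371 bases against 1164 bases. Among 4234 genes with a 3′ UTR of 2000 to 5000 bases, a range that holds XK and UBOX5 but not TNFRSF21, 508 held the 8-base form. There, 47.6% of genes with the word were called lower in triple KD against 32.0% without it, 22.4% against 6.60% in SAFB1 KD, and 12.6% against 12.5% in SLTM KD. For the 8-base form of the SAFB2 siRNA word, which XK, UBOX5 and TNFRSF21 lack, 45% of 547 genes were called lower in triple KD and 11.2% in SAFB1 KD, against 29% and 6.24% without it. For that of the SLTM siRNA word, 27.8% of 79 genes were called lower in SLTM KD and 5.06% in SAFB1 KD, against 8.74% and 6.42% without it. With a 3′ UTR of 2000 to 5000 bases, it was 23.3% of 43 genes against 12.4% in SLTM KD. Genes with the 8-base SAFB2 word were also called lower more often in SLTM KD, which had no SAFB2 siRNA. The shares were 17.2% against 8.54%, and 20.1% against 12% in that range of lengths. The part of the words in the losses of TNFRSF21 and XK was not tested. Both groups with SAFB siRNA had the same sequence, so pairing at the word and the loss of SAFB cannot be told apart with these groups.

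**Figure D4:**
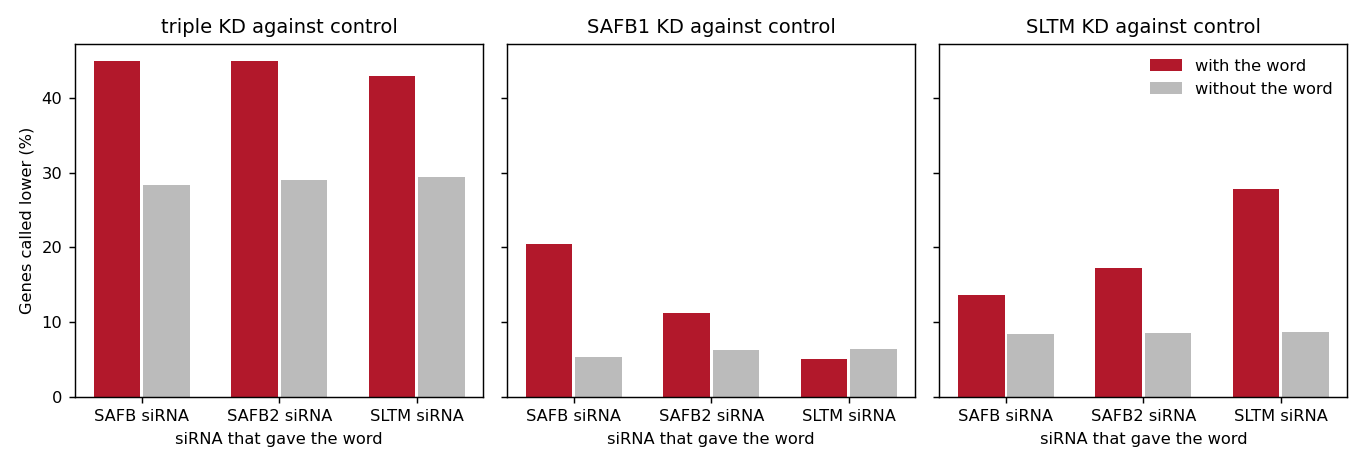
Percent of genes called lower (y axis, from 0) with and without the 8-base word of each siRNA (x axis) in the 3′ UTR, in triple KD, SAFB1 KD and SLTM KD against control, over 15766 genes. In SAFB1 KD the widest gap is at the SAFB siRNA word, 20.4% with the word against 5.36% without it.

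The genes beside TNFRSF21, XK and UBOX5 were examined because overlapping genes can share reads. TNFRSF21 had no other annotated gene within 50 kb. XK is overlapped on its strand by ENSG00000250349 and the pseudogene H2AL1MP, which had 0 and 2 counts over the 12 libraries and were not tested. Near XK, LANCL3 (0.894 CPM in triple KD and 1.14 in control) and CYBB (1.82 and 2.03 CPM in the same groups) were called in none of the 5 comparisons. UBOX5 overlaps FASTKD5, a mitochondrial RNA-processing protein gene on the same strand, with 100 bases of shared exon. FASTKD5 averaged 55.6 CPM in triple KD, 60.9 in SAFB1 KD, 49.9 in SLTM KD, with 53.8 in control. It rose in SAFB1 KD (0.18, adjusted p = 1.38e-05), where UBOX5 was lower, fell in SLTM KD (-0.11, adjusted p = 0.0139) and was not called in triple KD (0.05, adjusted p = 0.237). LZTS3, next to UBOX5, rose in triple KD (0.22, adjusted p = 1.78e-05), and ITPA was called in none of the comparisons. DDRGK1 was not called against control and fell in triple KD against SAFB1 KD (-0.10, adjusted p = 0.00146). The antisense gene UBOX5-AS1 stayed at or under 0.0642 CPM in every library.

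For the wider pathway, 53 other genes of death receptor signalling were listed, of which 50 were tested. In triple KD, 15 of the 50 were called higher and 12 lower, against 40.3% of all genes called. In SAFB1 KD 4 were higher and 3 lower, against 9.66% of all genes called, and in SLTM KD none was higher and 3 were lower, against 9.26%. At an unadjusted p under 0.05, 6 were higher in SLTM KD, and DESeq2 also called none higher. The small counts rested on single libraries: the 4 higher in SAFB1 KD became 0 without control replicate 1, 1 without control replicate 3, and 2 without control replicate 2, SAFB1 KD replicate 1 or 2, or triple KD replicate 1 or 2. The 3 lower in SAFB1 KD became 1 without control replicate 1, and the 3 lower in SLTM KD became 1 without control replicate 1 or 2 or SLTM KD replicate 1 or 3. The median log2 fold change of the list was 0.0237 in triple KD, -0.0033 in SAFB1 KD and -0.0068 in SLTM KD. Over all genes tested it was -0.00436 in triple KD, 0 in SAFB1 KD and 0.00496 in SLTM KD. No direction was shared across the list.

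Among ligands (7 tested), APP, whose fragments are reported to bind TNFRSF21, rose in triple KD to 890 CPM against 804 CPM in control (0.15, adjusted p = 5.23e-11). EDA, the ligand ectodysplasin, fell (-0.36, adjusted p = 1.55e-07). LTA, encoding lymphotoxin alpha, was called higher in triple KD at levels of 0.302 CPM against 0.146 CPM (adjusted p = 0.0171). LTA had only 16 to 21 counts per triple KD library and 7 to 14 per control library. By edgeR 2 ligands were called higher in triple KD, and by DESeq2 only 1. TNFSF10, the TRAIL gene, stood at 0.253 CPM in triple KD and 0.134 CPM in control and was not called (adjusted p = 0.0635). FASLG had 6 counts in all and was not tested.

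Among other receptors, the decoy receptor of TRAIL TNFRSF10D fell in triple KD to 53.5 CPM against 72.2 CPM in control (-0.43, SE 0.0278, adjusted p = 7.00e-21). It was not called in SAFB1 KD (0.05, adjusted p = 0.330) and lay below the sum of the single knockdowns (-0.50, adjusted p = 1.88e-16), the order seen for TNFRSF10B. FAS, the receptor of FAS ligand, rose in triple KD (0.15, adjusted p = 0.00287), and TNFRSF25, another death-domain receptor, fell (-0.38, adjusted p = 0.00429). NGFR was not called in triple KD (0.08, adjusted p = 0.535). None of the 8 receptors listed and tested beside these 7 genes was called in SAFB1 KD by edgeR or by DESeq2, and 1 had an unadjusted p under 0.05. By edgeR, 9.66% of all genes were called in SAFB1 KD.

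Of 6 adaptors and kinases tested, 1 rose and 2 fell in triple KD, against 40.3% of all genes called. TRADD, the adaptor of TNFRSF1A, rose (0.17, adjusted p = 0.0241), but its libraries overlapped. Its control replicate 1, at 10.82 CPM, lay above triple KD replicates 1 and 3, at 10.16 and 10.79 CPM. CRADD (-0.24, adjusted p = 0.00136) and EDARADD (-0.19, adjusted p = 0.00128) fell. RIPK1, the kinase recruited to TNFRSF1A, rose in SAFB1 KD (0.16, adjusted p = 0.00642) and was not called in triple KD (-0.02, adjusted p = 0.723). CASP8 (0.17, adjusted p = 0.000104) and CASP10 (0.28, adjusted p = 0.00236), the initiator caspases that FADD recruits, rose in triple KD.

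Of the list of 5 inhibitors and the antagonist DIABLO, 3 fell in triple KD, against 20.9% of all genes called lower, and none rose by edgeR, by DESeq2 or at an unadjusted p under 0.05. BIRC2, a ubiquitin ligase of the TNF receptor complex, fell (-0.41, adjusted p = 7.27e-14), as did BIRC3 (-0.43, adjusted p = 0.00139) and BAG4 (-0.38, adjusted p = 7.06e-16), a silencer of death domains. BIRC2, BAG4 and XIAP also fell in SLTM KD, by -0.13, -0.14 and -0.09 (adjusted p = 0.0204, 0.00156 and 0.0493). In the branch to NF-κB, 6 of 16 genes rose and 3 fell in triple KD, against 40.3% of all genes called. NFKB1, an NF-κB subunit, rose to 38.6 CPM against 26.9 CPM in control (0.52, adjusted p = 1.30e-19). Of the linear ubiquitin ligase, the catalytic subunit RNF31 rose (0.35, adjusted p = 3.74e-09) and its partner RBCK1 fell (-0.25, adjusted p = 4.09e-10). CHUK, a kinase of the inhibitor of NF-κB, fell in triple KD (-0.17, adjusted p = 3.92e-07) and in SAFB1 KD (-0.09, adjusted p = 0.0206).

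**Figure D5:**
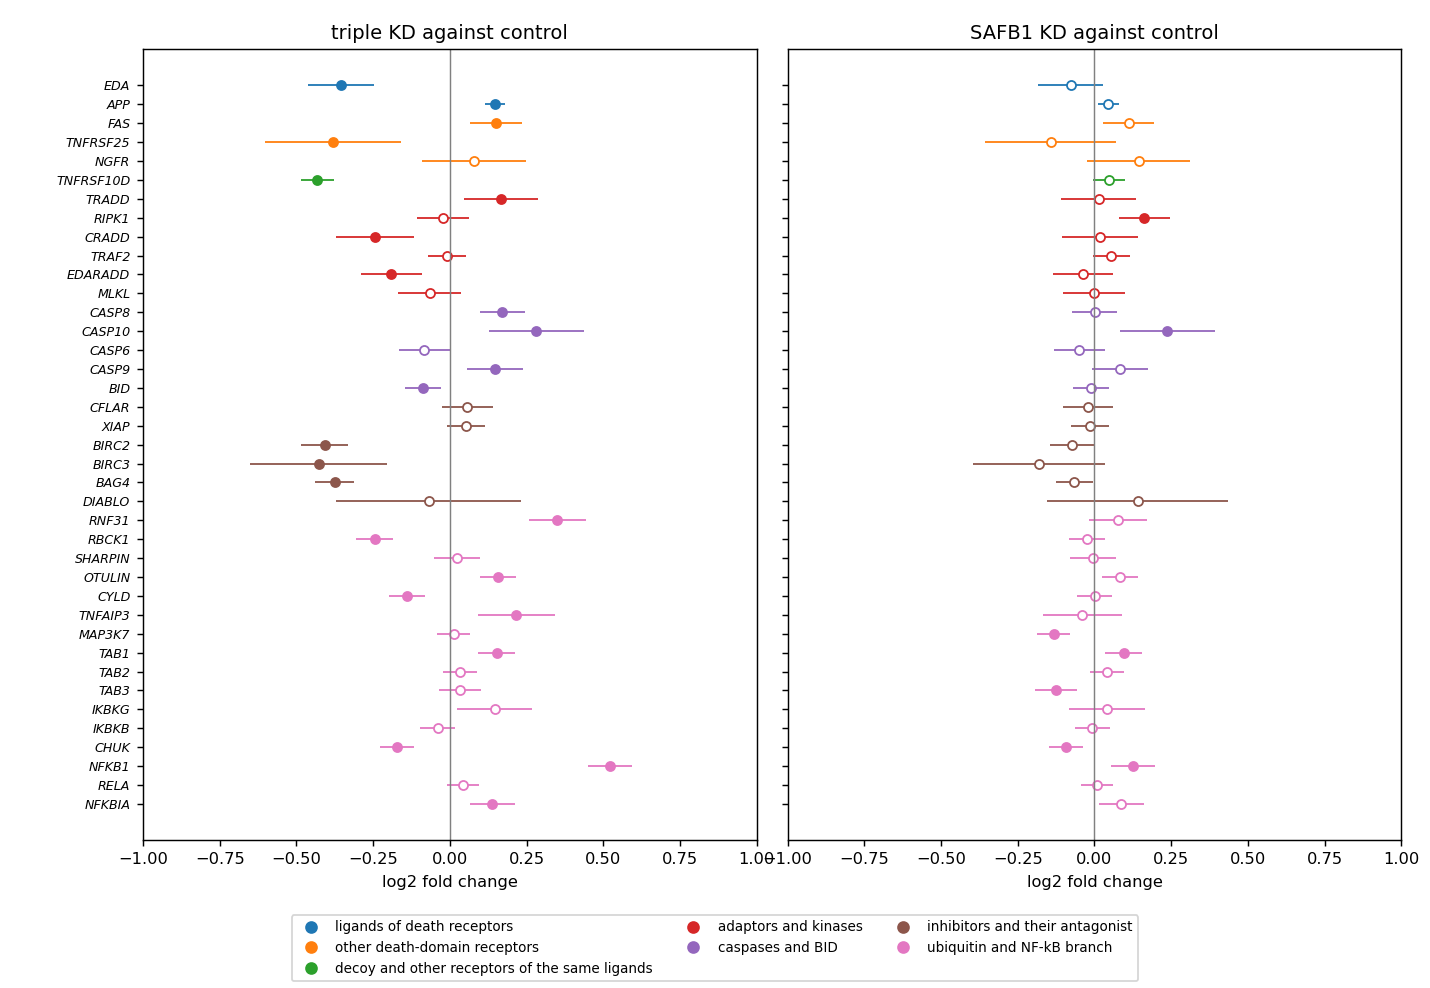
Log2 fold changes (x axis) in triple KD and SAFB1 KD against control of 39 listed genes (y axis) with a mean of at least 1 CPM in a group; colours are the lists, lines 95% intervals, and filled points were called. NFKB1 is highest in triple KD at 0.52 and TNFRSF10D is among the lowest at -0.43, and most points are open in SAFB1 KD.

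Of 12 relatives and partners of XK, 3 rose and 4 fell in triple KD, against 40.3% of all genes called. VPS13A, the lipid transfer protein bound to XK, fell (-0.13, adjusted p = 1.59e-05) to 99.6 CPM against 109 CPM in control, a far smaller difference than that of XK. BSG, a chaperone of XKR8, a scramblase of the XK family, fell (-0.11, adjusted p = 7.73e-07), and its relative NPTN rose (0.22, adjusted p = 2.92e-12). ANO6, a phospholipid scramblase, fell (-0.23, adjusted p = 3.10e-10). In SAFB1 KD only NPTN was called (0.09, adjusted p = 0.00695), against 9.66% of all genes. Of 7 genes for U-box ligases and the E2 enzyme UBE2L3, 3 rose and 2 fell in triple KD, against 40.3% of all genes called. Among them were PPIL2 (0.39, adjusted p = 7.29e-19), UBE2L3 (0.20, adjusted p = 4.12e-11), UBE4A (-0.11, adjusted p = 0.00031) and PRPF19 (-0.06, adjusted p = 0.0257). In SAFB1 KD, where UBOX5 held 47.0% of control, PPIL2 rose (0.10, adjusted p = 0.0122) and UBE4A fell (-0.11, adjusted p = 0.00253).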

How the data were processed

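The authors trimmed reads with cutadapt, used STAR 2.7.9a to align them to GRCh38, and deposited raw read counts of uniquely placed, reverse-stranded reads per gene, 1 library per file. Each replicate stayed separate, and sample titles gave the groups. The 7 genes, the gene lists and the tests were chosen with earlier results of these data known. Genes with at least 10 counts over 12 libraries were fitted together with edgeR 4.0.16 in R 4.3.3: TMM factors, a term for group, two-sided quasi-likelihood F tests and Benjamini-Hochberg adjustment over 26688 genes, at 0.05. Intervals are estimates ± 1.96 SE. The fit was tested on simulated data. DESeq2 1.42.0, upper-quartile scaling, other filters, a replicate block and leaving out each library were the alternatives. Loci, 3′ UTRs and transcripts came from GENCODE release 44, which held 58207 of the 58780 IDs, and siRNA sequences from the study's supplement. In each list, up to 4 genes with the smallest adjusted p were named, besides neighbours within 50 kb and the 5 genes most correlated with TNFRSF21, XK and UBOX5 (prior count 2). Additional genes were named after their values were seen: the 8 shared losses and MIR600HG. P-values set a difference against the spread between replicate libraries, 3 per group. That spread was estimated over all 12 libraries together and drew in part on other genes. Some listed genes are counted with their list and are not reported here by name.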

Additional observations from a re-analysis of the deposited data

How the results depend on the processing

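Over 18 alternatives the log2 fold changes of TNFRSF21, XK and UBOX5 ran from -1.49 to -1.44, -1.11 to -1.05 and -1.12 to -1.06 in SAFB1 KD, and from -1.55 to -1.49, -1.88 to -1.81 and -1.60 to -1.51 in triple KD. In SLTM KD none of the 6 genes was called under any alternative, except TNFRSF1A as given above. With upper-quartile scaling, 1 pathway gene was higher and 1 lower in SLTM KD, and over all genes 1552 were higher and 1146 lower there, against 962 and 1509. With no filter, 2 pathway genes were higher in SAFB1 KD. With 1 library left out, SAFB1 KD called 1706 (without SAFB1 KD replicate 2) to 2723 genes, triple KD 9759 to 10902 and SLTM KD 1756 to 2628. Pathway genes called in SAFB1 KD were then 0 to 4 higher and 1 to 3 lower, and in SLTM KD 1 to 4 lower. In the check of pairing, 1 of 18 pairs of libraries with the same number deviated together at r over 0.1. For these pairs r ran from -0.025 to 0.139, and for the 36 pairs with other numbers from -0.111 to 0.0636. Each of the 12 libraries correlated on average best with its own number. These values do not settle whether the numbers pair the samples, and the main fit has no term for them. With the replicate block 3416 genes were called in SAFB1 KD, 11109 in triple KD, 3172 in SLTM KD, 9754 in triple KD against SAFB1 KD and 6334 beyond the sum. Without it the counts were 2577, 10765, 2471, 9308 and 5713, in the same order. The range of 3′ UTR lengths was chosen after seeing the data. For the SLTM siRNA word, the difference in medians in SAFB1 KD moved by less than 0.01 with the 8-base form. At 152 to 208 counts of UBOX5 per triple KD library, UBOX5 had the widest intervals of the 6 genes.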
